A study of Mus musculus with 28 samples.

Results

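S100a8, S100a9, Lyz2, Slpi, Il1r2, Camp, Ngp and Ltf are transcripts typical of neutrophils and other myeloid cells, and they were followed here through RNA prepared from CD4+ T cells. The 8 genes were picked by name, with their levels in these arrays already known, and each was read through its brightest probe set with a single gene symbol, judged by the mean log2 intensity. Each gene had exactly 1 such probe set, so 8 of 45141 probe sets and 8 of 17097 named genes are described. All 8 entered every count below, since no filter on low values was applied.

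Neutrophils load their granules in order as they mature in the marrow. The primary granules, with myeloperoxidase, elastase, proteinase and cathepsin G, are filled by promyelocytes, and the secondary granules, with lactoferrin, cathelicidin and Ngp, by the later myelocytes. S100A8 and S100A9 form calprotectin, a calcium- and zinc-binding complex that fills the cytosol of neutrophils and is a classical index of myeloid cells in a tissue. In a bulk preparation, fewer cells of a type and less RNA per cell cannot be told apart.

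The arrays were made from total CD4+ T cells of the spleens of 12-week-old female mice. The reference was C57BL/6. B6.Sle1b carries, on the same background, a lupus-linked segment of chromosome 1 that holds the SLAM receptor genes, and Sle1b.BACSlamf6-H1 is that congenic line with an added bacterial artificial chromosome named for Slamf6 H1. RNA came from unstimulated cells or from cells kept for 4 h or 24 h on plate-bound antibody to CD3 (0.1 µg/ml), which engages the T cell receptor. There were 3 arrays in each of 8 groups and 2 in C57BL/6 at 24 h, together 26. A further 2 arrays of that last group are titled technical and are not part of the groups. How the CD4+ cells were isolated, how pure they were, whether mice were pooled, and which sequences drive the added chromosome are not given in the sources used here. Arrays are named by the replicate number in their titles.

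The number of arrays limits the precision of every value. The 75th percentile of an array's intensity lay between 34.2 and 53.3, and its background, the 95th percentile of 23 nonspecific control probe sets, between log2 2.76 and 3.21. All 8 measured T cell markers, among them Cd3e and Cd4, were above background on all 26 arrays, and their summed intensity stayed within a 1.51-fold range. T cell RNA was thus present on every array, which does not show how pure the CD4+ cells were. Above background on all arrays were also 5 of 9 B cell, 2 of 4 NK cell and 1 of 2 CD8 T cell markers. The median of Cd4 was log2 5.63, beside 7.05 for Ms4a1 and 6.98 for Cd79b (B cell), 7.39 for Klrd1 (NK cell) and 5.15 for Cd8b1. Probe sets differ in brightness, so these values do not give shares of cells. Further markers of other cells are given beside the results they move with.

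Between groups, the 8 transcripts did not behave as 1 block. S100a8 and S100a9 varied most, by 80.2-fold and 63.6-fold between the lowest and the highest of the 26 arrays, and 43.2% and 47.7% of their variance lay between arrays of the same group. Slpi and Il1r2 were highest in unstimulated cells and lower at 24 h. Lyz2 was highest at 24 h, in both lines that carry the Sle1b interval. Camp, Ngp and Ltf ranged over 7.33-fold, 10.8-fold and 3.37-fold. Values at or under background were found for S100a8 on 2 arrays, S100a9 on 3, Lyz2 on 1 and Camp on 6, while Slpi, Il1r2, Ngp and Ltf were above it on all 26.

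**Figure D1:**
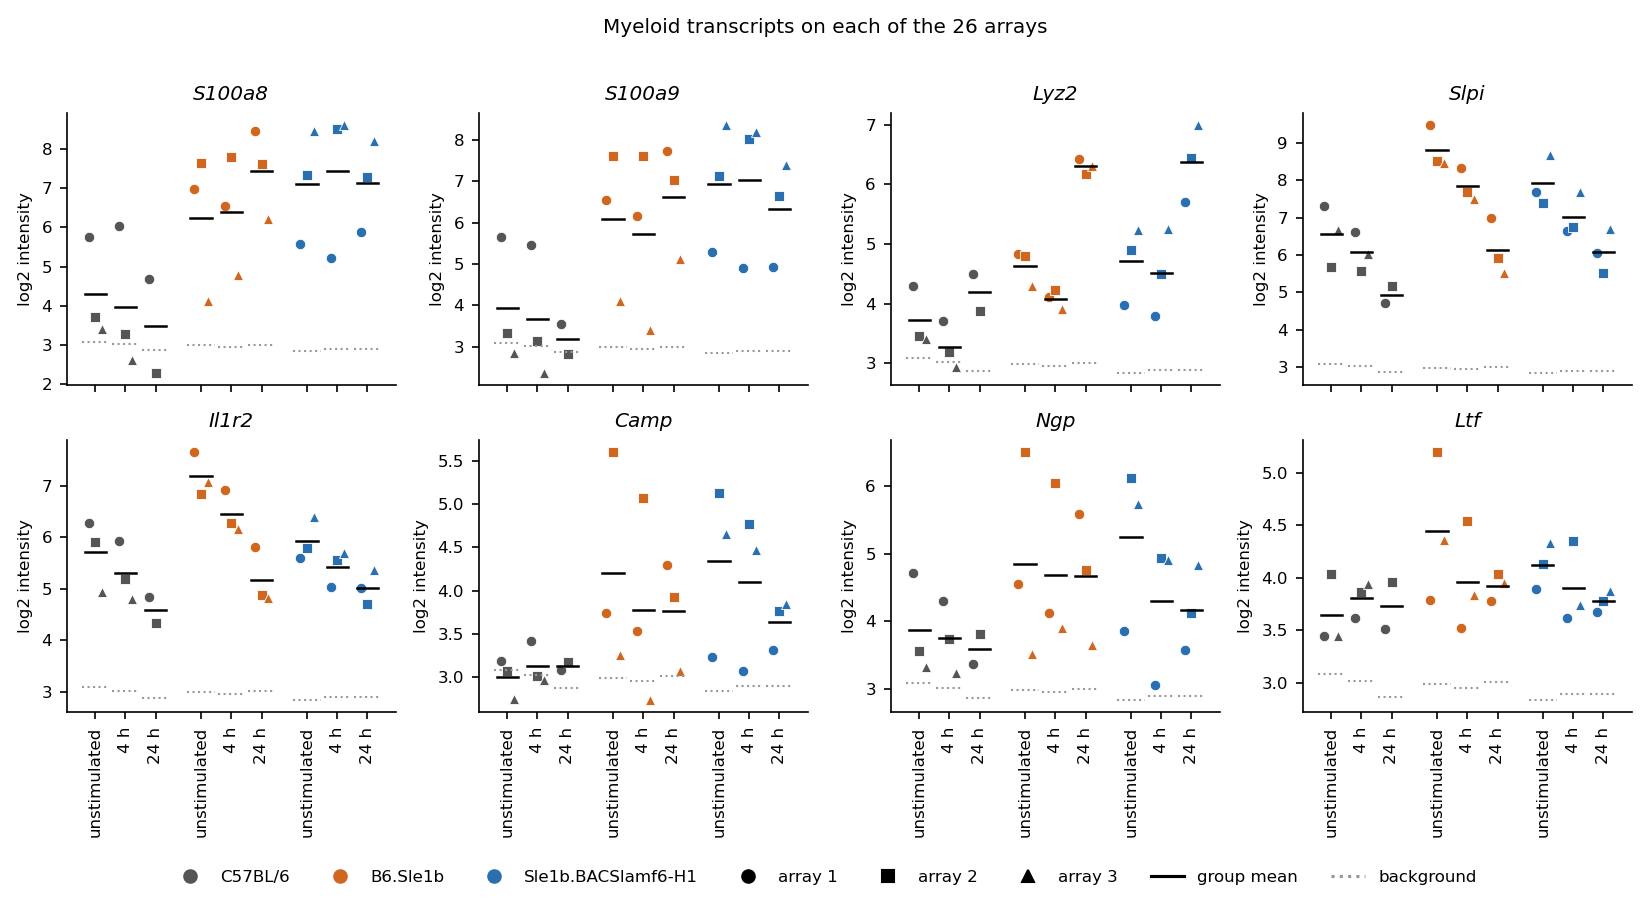
Log2 intensity (vertical axis, its range set for each gene) of the 8 transcripts on the 26 biological arrays, by strain and time (horizontal axis); symbols give the replicate number, black lines the group mean and dotted lines the mean background. S100a8 and S100a9 spread over several log2 units within groups, Slpi and Il1r2 step down with time, and Lyz2 is highest at 24 h in the 2 lines with the Sle1b interval.

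S100a8 encodes the smaller subunit of calprotectin, and S100a9 the larger. The genes lie close together on chromosome 3 with 22595 bases between them and point in opposite directions. Their promoters are shown because the transcripts followed each other more closely than any other pair of the 8. Each sequence is the 250 bases before the transcription start, from the RefSeq annotation of GRCm38.p6, read on the gene's own strand, at chr3:90668821-90669070 (plus strand) for S100a8 and chr3:90695722-90695971 (minus strand) for S100a9. Capitals mark matches, on either strand, to the C/EBP motif TTNNGNAA, the ETS-type core GAGGAA of PU.1, and TATAAA.
S100a8: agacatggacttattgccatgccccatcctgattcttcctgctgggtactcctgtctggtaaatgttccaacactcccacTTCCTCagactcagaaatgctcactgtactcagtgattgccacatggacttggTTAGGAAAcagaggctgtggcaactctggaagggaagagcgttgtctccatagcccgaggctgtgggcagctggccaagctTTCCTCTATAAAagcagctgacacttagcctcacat
S100a9: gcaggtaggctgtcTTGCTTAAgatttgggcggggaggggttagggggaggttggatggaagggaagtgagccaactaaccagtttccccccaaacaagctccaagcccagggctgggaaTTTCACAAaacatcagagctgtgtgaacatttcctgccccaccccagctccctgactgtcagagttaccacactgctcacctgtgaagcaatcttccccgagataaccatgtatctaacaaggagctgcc
C/EBP and PU.1 proteins are transcription factors of the granulocyte and macrophage lineages. S100a8 held 1 match to TTNNGNAA, first base at -117 from the start, 2 to GAGGAA (-170 and -36, as TTCCTC), and a TATAAA at -30 that directly follows the second of these without overlap. S100a9 held 2 matches to TTNNGNAA (-236 and -130) and none to the other two. Of 32851 promoters of the same length, 36.8% hold TTNNGNAA, 23.3% GAGGAA and 12.4% TATAAA, so the matches are a description of the letters and no more.

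S100a8 measured log2 5.76, 3.72 and 3.40 on arrays 1, 2 and 3 of unstimulated C57BL/6, 6.03, 3.27 and 2.60 at 4 h, and 4.69 and 2.28 at 24 h. In B6.Sle1b the corresponding values were 6.99, 7.64 and 4.13 without stimulation, 6.55, 7.81 and 4.79 at 4 h, and 8.47, 7.62 and 6.21 at 24 h. Sle1b.BACSlamf6-H1 gave 5.57, 7.33 and 8.46, then 5.23, 8.52 and 8.61, then 5.89, 7.29 and 8.22. Array 1 was the highest of C57BL/6 at each time, array 3 the lowest of B6.Sle1b, and array 1 the lowest of Sle1b.BACSlamf6-H1. The other places changed in B6.Sle1b only, where C57BL/6 has no array 3 among the groups at 24 h. The labels do not say that a number stands for 1 mouse. C57BL/6 overlapped with both other strains in unstimulated cells and at 4 h, and lay below them on all arrays at 24 h.

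S100a9 repeated these values closely. C57BL/6 gave 5.65, 3.32 and 2.86 unstimulated, 5.47, 3.15 and 2.36 at 4 h, and 3.54 and 2.83 at 24 h. B6.Sle1b gave 6.55, 7.61 and 4.12, then 6.15, 7.60 and 3.40, then 7.73, 7.03 and 5.12. In Sle1b.BACSlamf6-H1 it measured 5.30, 7.13 and 8.35, then 4.91, 8.02 and 8.20, then 4.92, 6.66 and 7.40. The highest and lowest arrays of each group were those of S100a8 in all 9 groups. Ordered by group mean, from 7.04 (Sle1b.BACSlamf6-H1, 4 h) to 3.19 (C57BL/6, 24 h), all 8 pairs of neighbouring groups overlapped for S100a9, and likewise for S100a8.

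In the fit of group means neither gene was called in any of the 6 comparisons of stimulated with unstimulated cells (limma, Benjamini-Hochberg adjustment over all 17097 genes, call under 0.05). The arrays are titled as biological replicates, but the labels do not say whether each came from a separate mouse, so p-values describe the scatter of these samples alone. The largest difference was that of S100a8 in B6.Sle1b at 24 h, a log2 difference of 1.18 ± 1.15 (SE), adjusted p = 0.502, with a 95% interval of -1.20 to 3.56. The same-numbered arrays of B6.Sle1b correlated with each other, as did its arrays 1 and 2 across numbers. With the replicate number as a fixed block, called the replicate block here, this difference was called (± 0.37, adjusted p = 0.0214), with array 2 at -0.02. In Sle1b.BACSlamf6-H1 it was 0.01 ± 1.15 at 24 h (-2.37 to 2.39). These intervals, from the fit without a block, span several log2 units. In that fit a change of either sign and of a few fold was not detectable with 3 arrays a group.

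Camp encodes the precursor of cathelicidin, the antimicrobial peptide of secondary granules. Ngp encodes neutrophilic granule protein, a cystatin-like protein of the same granules, and Ltf encodes lactoferrin, their iron-binding protein. The 3 genes lie near one another on chromosome 9. Their promoters are shown for that reason and because Camp and Ngp moved together, at chr9:109849457-109849706 (minus strand), chr9:110419558-110419807 (plus strand) and chr9:111019042-111019291 (plus strand), with the same marks.
Camp: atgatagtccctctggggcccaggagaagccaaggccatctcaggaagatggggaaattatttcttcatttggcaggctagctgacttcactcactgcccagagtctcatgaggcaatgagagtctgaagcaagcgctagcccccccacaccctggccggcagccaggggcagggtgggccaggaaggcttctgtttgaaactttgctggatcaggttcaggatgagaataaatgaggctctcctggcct
Ngp: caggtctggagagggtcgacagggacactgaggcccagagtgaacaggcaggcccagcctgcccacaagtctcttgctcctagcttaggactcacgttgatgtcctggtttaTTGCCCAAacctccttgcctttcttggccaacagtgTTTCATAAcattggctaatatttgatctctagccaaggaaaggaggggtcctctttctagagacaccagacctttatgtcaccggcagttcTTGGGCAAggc
Ltf: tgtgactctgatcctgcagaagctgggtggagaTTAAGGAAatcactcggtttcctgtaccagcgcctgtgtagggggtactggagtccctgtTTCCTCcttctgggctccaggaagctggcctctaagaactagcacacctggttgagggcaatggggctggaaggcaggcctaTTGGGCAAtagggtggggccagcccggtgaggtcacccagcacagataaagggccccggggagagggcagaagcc
Camp held none of these motifs. Ngp held 3 matches to TTNNGNAA, at -138, -102 and -11, and Ltf held 2, at -217 and -75, beside 1 GAGGAA at -157. The 8 letters TTGGGCAA, noticed in these promoters and searched for afterwards, are 1 form of TTNNGNAA. They occur in Ngp on both strands (-138 as TTGCCCAA, and -11) and in Ltf at -75, and are thus the same matches as above. Of all promoters, 0.709% hold them. Over the 8 genes, 6 held TTNNGNAA and 2 held GAGGAA.

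Camp was near background in C57BL/6, at log2 3.19, 3.07 and 2.74 unstimulated, 3.42, 3.01 and 2.96 at 4 h, and 3.07 and 3.18 at 24 h. B6.Sle1b gave 3.74, 5.61 and 3.25, then 3.53, 5.07 and 2.73, then 4.30, 3.93 and 3.07, and Sle1b.BACSlamf6-H1 gave 3.23, 5.14 and 4.65, then 3.06, 4.77 and 4.48, then 3.31, 3.76 and 3.84. Array 2 stood highest in both lines with the interval until 4 h and no longer at 24 h. C57BL/6 and B6.Sle1b did not overlap in unstimulated cells, though array 1 of C57BL/6 (3.19) and array 3 of B6.Sle1b (3.25) came close.

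Ngp was above background throughout. It measured 4.71, 3.56 and 3.33 in unstimulated C57BL/6, 4.30, 3.73 and 3.24 at 4 h, and 3.36 and 3.82 at 24 h. In B6.Sle1b it measured 4.54, 6.50 and 3.51, then 4.12, 6.05 and 3.90, then 5.59, 4.75 and 3.66, and in Sle1b.BACSlamf6-H1 3.86, 6.12 and 5.74, then 3.06, 4.93 and 4.91, then 3.57, 4.12 and 4.82. The highest and the lowest array were those of Camp in all 9 groups, and every pair of strains overlapped at every time. Within groups lay 71.6% of the variance of Ngp and 65.7% of that of Camp, against 13% for Lyz2.

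Ltf stayed between 3.44 and 5.20. The highest value was on array 2 of unstimulated B6.Sle1b, the array that was also highest for Camp and Ngp, and the next was array 2 of the same strain at 4 h. Array 1 was the lowest at each time in all 3 strains. None of Camp, Ngp and Ltf was called at 4 h or 24 h in any strain in the fit of group means. The smallest adjusted p was 0.194, for Ltf in B6.Sle1b at 24 h (-0.52 ± 0.28), and it was 0.0286 without array 1 of unstimulated B6.Sle1b and 0.0436 with the replicate block.

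Lyz2 encodes the lysozyme of macrophages, monocytes and granulocytes, which cleaves bacterial cell walls. In unstimulated C57BL/6 it measured log2 4.30, 3.46 and 3.41, at 4 h 3.70, 3.19 and 2.94, and at 24 h 4.50 and 3.88. B6.Sle1b gave 4.82, 4.80 and 4.29 unstimulated, 4.11, 4.22 and 3.91 at 4 h, and 6.43, 6.16 and 6.30 at 24 h. Sle1b.BACSlamf6-H1 gave 3.98, 4.90 and 5.24, then 3.79, 4.49 and 5.24, then 5.70, 6.44 and 6.99. At 24 h all 6 arrays of the lines with the Sle1b interval lay above every other array of the study, and C57BL/6 at 24 h overlapped with its own unstimulated arrays.

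Lyz2 rose 3.16-fold by 24 h in B6.Sle1b (log2 1.66 ± 0.36, adjusted p = 0.00108) and 3.17-fold in Sle1b.BACSlamf6-H1 (1.66 ± 0.36, adjusted p = 9.32e-04). In C57BL/6 the difference was 0.46 ± 0.40 (adjusted p = 0.536), with an interval of -0.38 to 1.31. Whether the strains differ in this response was not tested. Both called rises kept their call without each array in turn, with adjusted p up to 0.00660 and 0.0121. The probe sets of Lyz2 and S100a8 are of classes that can read near-identical sequences, and whether they did was not tested. At 4 h Lyz2 was not called without a block, and with the replicate block it was lower in B6.Sle1b (-0.56 ± 0.12, adjusted p = 0.00897). The separate probe set of the paralog Lyz1 lay between 1.85 and 2.47, at or under background on all 26 arrays.

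Slpi encodes secretory leukocyte protease inhibitor, which blocks neutrophil elastase and cathepsin G. It measured log2 7.32, 5.67 and 6.67 in unstimulated C57BL/6, 6.61, 5.56 and 6.04 at 4 h, and 4.71 and 5.17 at 24 h. B6.Sle1b gave 9.47, 8.51 and 8.46, then 8.32, 7.70 and 7.51, then 6.98, 5.92 and 5.53. Sle1b.BACSlamf6-H1 gave 7.70, 7.40 and 8.67, then 6.63, 6.76 and 7.68, then 6.04, 5.52 and 6.69. The 24 h arrays of each strain lay below all of its unstimulated arrays, and all B6.Sle1b arrays lay above those of C57BL/6 at the same time.

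By 24 h Slpi fell in all 3 strains, 3.07-fold in C57BL/6 (log2 -1.62 ± 0.51, adjusted p = 0.0217), 6.36-fold in B6.Sle1b (-2.67 ± 0.46, adjusted p = 8.03e-05) and 3.58-fold in Sle1b.BACSlamf6-H1 (-1.84 ± 0.46, adjusted p = 0.00303). At 4 h the differences were -0.49, -0.97 and -0.90 and none was called in the fit of group means. With the replicate block that of B6.Sle1b was called (adjusted p = 0.0310), as it was with array weights (-1.46, adjusted p = 6.65e-04), and all 3 of its same-numbered pairs were lower at 4 h. In C57BL/6 the call was lost without array 1 or 3 of the unstimulated cells and without either array at 24 h (adjusted p up to 0.182, the difference between -2.06 and -1.23). In both other strains it was kept without each array. The minus-strand promoter of Slpi holds 3 matches to TTNNGNAA, at -241, -223 and -64, and 1 E-box CACGTG at -146. That E-box is in 6.02% of promoters, and the promoter of Il1r2 holds it at -238 and -195.

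Il1r2 encodes the decoy receptor of interleukin 1, which binds the cytokine without signalling and is prominent on neutrophils. In C57BL/6 it measured log2 6.28, 5.92 and 4.93, then 5.93, 5.20 and 4.81 at 4 h, then 4.83 and 4.33 at 24 h. B6.Sle1b gave 7.66, 6.85 and 7.08, then 6.92, 6.29 and 6.17, then 5.82, 4.89 and 4.81. Sle1b.BACSlamf6-H1 gave 5.61, 5.79 and 6.40, then 5.03, 5.56 and 5.70, then 5.01, 4.71 and 5.36. B6.Sle1b was the highest strain until 4 h, above C57BL/6 and above Sle1b.BACSlamf6-H1 on all arrays, and the 3 strains overlapped at 24 h.

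Il1r2 fell by 24 h in C57BL/6 (log2 -1.13 ± 0.40, 2.19-fold, adjusted p = 0.0412) and in B6.Sle1b (-2.02 ± 0.36, 4.07-fold, adjusted p = 1.10e-04). In Sle1b.BACSlamf6-H1 the arrays at 24 h also lay below the unstimulated ones, and the difference of -0.91 ± 0.36 was not called (adjusted p = 0.0605). It was called in other planned fits, such as that of only the 2 groups compared (adjusted p = 0.00744) and that with array weights (0.0234). In C57BL/6 the call was lost without array 1 or 2 of the unstimulated cells and without either array at 24 h (adjusted p up to 0.302). The fall in B6.Sle1b kept its call without each array. Its difference at 4 h (-0.74) was called with the replicate block (adjusted p = 0.00447). Il1r2 lies on chromosome 1 (chr1:40084692-40125230 in GRCm38.p6), far from the SLAM receptor genes of the Sle1b interval.

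**Figure D2:**
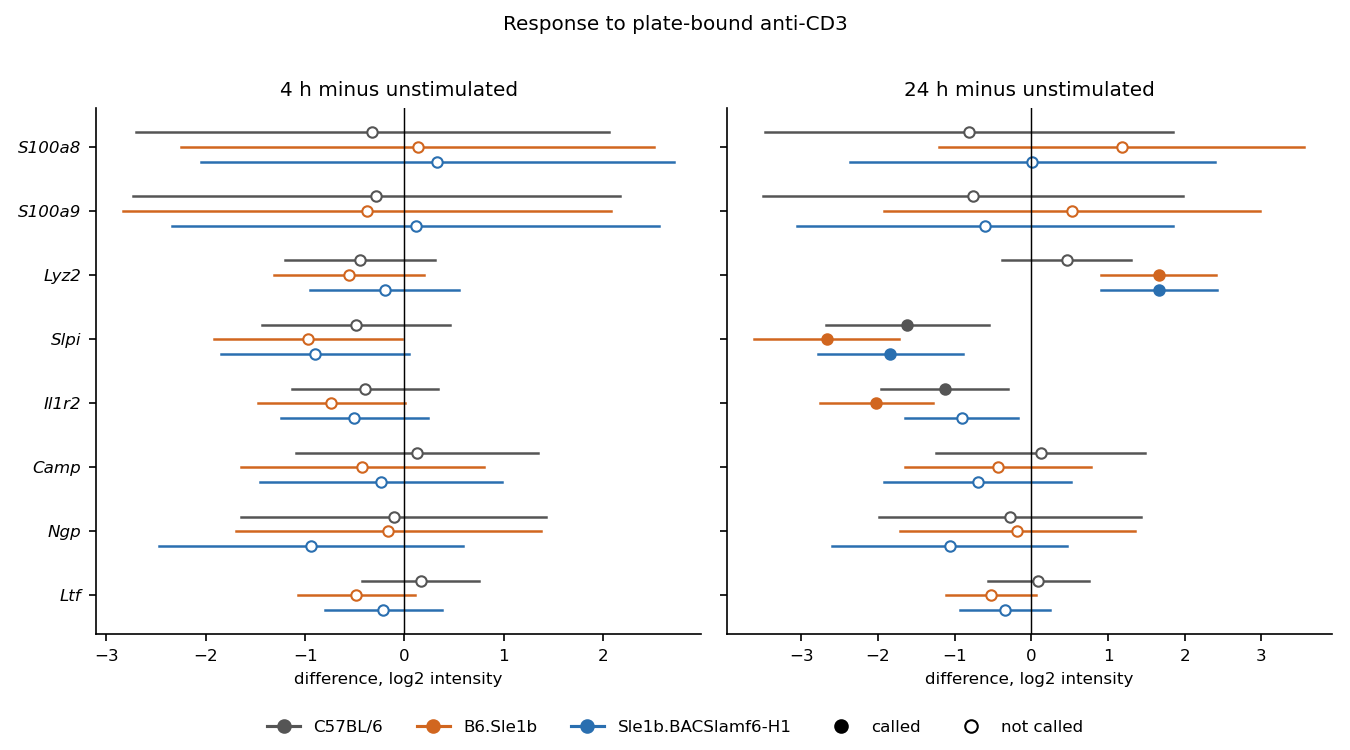
Difference in log2 intensity (horizontal axis) between stimulated and unstimulated cells at 4 h and 24 h for each gene (vertical axis) and strain, with 95% intervals of the limma fit; filled points have an adjusted p under 0.05. At 4 h no interval belongs to a called gene, and at 24 h Lyz2 lies to the right in the 2 lines with the Sle1b interval and Slpi and Il1r2 to the left.

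Counted over the 8 genes in the fit of group means, none was called at 4 h, where 7.04%, 5.69% and 10.6% of all genes were called in C57BL/6, B6.Sle1b and Sle1b.BACSlamf6-H1. At an unadjusted p under 0.05 the counts at 4 h were 0, 1 (Slpi) and 0. With the replicate number as a fixed block B6.Sle1b had 3 called at 4 h and 5 at 24 h. With it as a random block 0 and 3 were called, as many as without a block. By 24 h, C57BL/6 had 2 of 8 called, B6.Sle1b had 3 and Sle1b.BACSlamf6-H1 had 2, against 24.3%, 28.2% and 29.1% of all genes, so the shares were near the background. The 2 in C57BL/6 fell (8.6% of all genes fell), in B6.Sle1b 1 rose (14.8%) and 2 fell (13.4%), and in Sle1b.BACSlamf6-H1 1 rose (17.2%) and 1 fell (11.9%). The median difference of the 8 was -0.52, -0.31 and -0.65 at 24 h, beside medians of 0.04, 0.07 and 0.06 over all genes. These medians were not stable: that of B6.Sle1b was 0.12 with array weights and -0.71 without the 3 dimmest arrays, and that of C57BL/6 was -0.02 without its array 1. The 3 strains' comparisons use separate arrays, whereas 4 h and 24 h of a strain share the unstimulated ones.

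Between strains the values are a description, since the genes had been picked with these differences in view. All 8 group means were higher in B6.Sle1b than in C57BL/6 at each time, with a median difference of 1.34 unstimulated, 1.04 at 4 h and 1.14 at 24 h, beside all-gene medians of 0.02, -0.02 and -0.02. Leaving out 1 array at a time moved the 24 h median between 0.698 and 1.55. Averaged over the 3 times, S100a8 differed by 2.77, S100a9 by 2.55, Slpi by 1.74, Lyz2 by 1.28, Il1r2 by 1.08, Ngp by 1.0, Camp by 0.83 and Ltf by 0.38. The arrays did not overlap for Slpi, Il1r2 and Camp in unstimulated cells (3.65% of all genes were higher without overlap), for Lyz2, Slpi and Il1r2 at 4 h (3.08%), and for S100a8, S100a9, Lyz2 and Slpi at 24 h (9.63%).

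Sle1b.BACSlamf6-H1 was likewise above C57BL/6 in all 8 means at each time, by a median of 1.35, 0.96 and 0.86. There was no overlap for Slpi and Camp in unstimulated cells (4.67% of genes), for Lyz2 and Slpi at 4 h (2.29%) and for S100a8, S100a9, Lyz2, Slpi and Camp at 24 h (8.36%). Against B6.Sle1b its medians were 0.10, 0.13 and -0.15, and their sign turned at every time when single arrays were left out (-0.31 to 0.56, -0.16 to 0.51 and -0.42 to 0.16). Il1r2 alone was lower without overlap, by 1.26 in unstimulated cells (2.40-fold, 8.36% of genes lower without overlap) and 1.03 at 4 h (2.05-fold, 3.9%), and it was 0.15 lower at 24 h. The 3 strain differences share arrays pairwise and are not independent of one another.

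The spread between arrays of the same group was wide for some of the 8. Its SD was 1.61 for S100a9 and 1.56 for S100a8, the largest and second largest of all 17097 genes, and 1.0 for Ngp (sixth), 0.80 for Camp (20th), 0.61 for Slpi, 0.49 for Lyz2, 0.48 for Il1r2 and 0.38 for Ltf, where the median gene had 0.21 and the 99th percentile was 0.57. Within unstimulated B6.Sle1b, for instance, S100a8 ranged over 3.51 log2 units. With group means removed, the correlation of the 8 genes with the 75th percentile lay between -0.27 and 0.32 over the 26 arrays, and with 18S ribosomal RNA between -0.41 and -0.02.

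**Figure D3:**
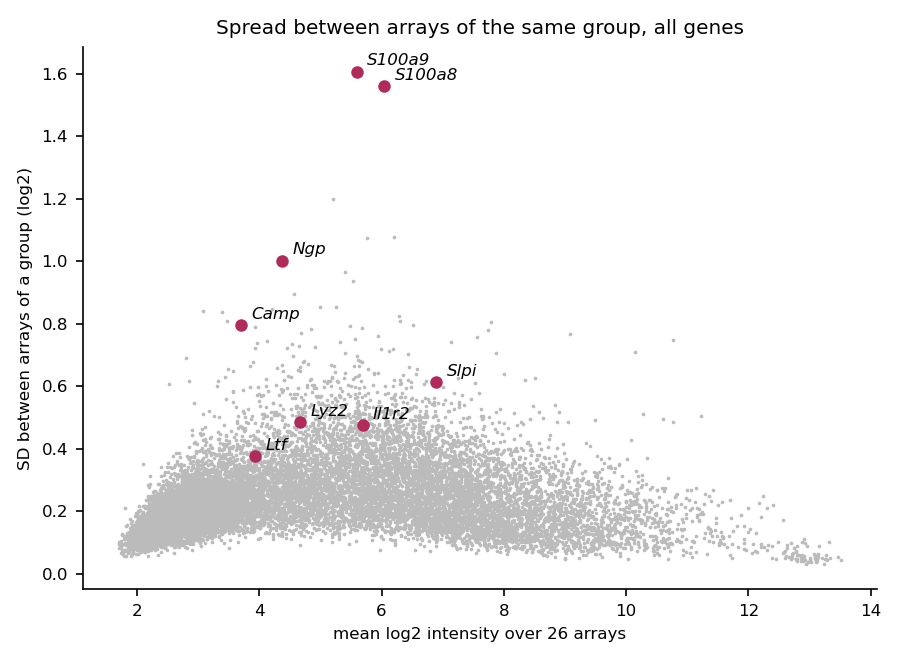
Standard deviation between arrays of the same group (vertical axis, log2) against the mean log2 intensity (horizontal axis) for each of 17097 genes, with the 8 myeloid transcripts marked. S100a9 and S100a8 stand at the top, at 1.61 and 1.56, and Ltf is the lowest of the 8 at 0.38, above the median gene (0.21).

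Within groups the transcripts formed pairs. With group means removed, Pearson's r over the 26 arrays was 0.97 for S100a8 with S100a9 and 0.95 for Camp with Ngp, and between these pairs it lay between 0.77 and 0.88. Lyz2 followed S100a8 (0.85) more than Slpi (0.55). Slpi and Il1r2 had r = 0.66 with each other, and 0.17 and 0.24 with Camp. Ltf went with Camp (0.64) and Ngp (0.53) and against Slpi (-0.37). The median of the 28 pairs was 0.59. These are descriptions of arrays that share strain and time within a group, and correlated values of 1 array say nothing on which cell a transcript came from.

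**Figure D4:**
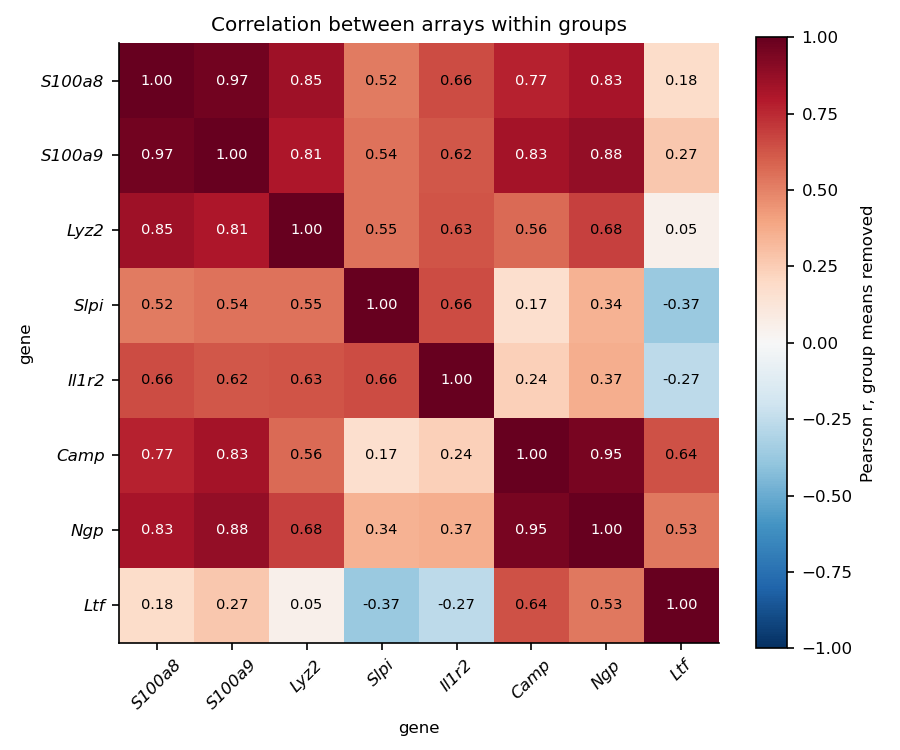
Pearson r between the 8 transcripts (both axes) over 26 arrays after the mean of each group was removed, in colour and as numbers. S100a8 with S100a9 (0.97) and Camp with Ngp (0.95) are the closest pairs, and Slpi with Ltf (-0.37) the lowest.

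Over the arrays as measured, which includes differences between groups, some pairs looked otherwise. Slpi and Il1r2 reached 0.89, both being lower at 24 h, while Lyz2 and Slpi had -0.02, since Lyz2 was high at 24 h where Slpi was low. S100a8 with S100a9 had 0.98 and Camp with Ngp 0.93.

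Markers of the myeloid stages were measured beside them. Of the 5 primary granule markers 3 were above background on all arrays, and their summed intensity ranged over 12.8-fold, from 52.8 in C57BL/6 at 24 h to 678 in unstimulated Sle1b.BACSlamf6-H1. It correlated with the mean of S100a8 and S100a9 within groups at r = 0.71, myeloperoxidase (Mpo) at 0.80, proteinase 3 (Prtn3) at 0.67 and cathepsin G (Ctsg) at 0.62, whereas elastase (Elane) stayed between 3.32 and 4.21 (0.16). By 24 h, 3 of the 5 were called lower in B6.Sle1b, with Mpo at -2.26 ± 0.71 (adjusted p = 0.0193) and Prtn3 at -2.02 ± 0.62 (0.0168). In Sle1b.BACSlamf6-H1 2 were called lower, with Mpo at -2.91 ± 0.71 (0.00277) and Prtn3 at -2.22 ± 0.62 (0.00827). None was called in C57BL/6 or at 4 h. In C57BL/6 4 of the 5 were still lower at 24 h (median -0.75), and the mean of Mpo went from 5.55 to 3.53. At 4 h 4, 5 and 5 of the 5 were lower in C57BL/6, B6.Sle1b and Sle1b.BACSlamf6-H1 (medians -0.08, -1.08 and -0.33). S100a8 and S100a9 were not called in those comparisons in the fit of group means. With the replicate block S100a8 was called higher in B6.Sle1b at 24 h.

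Markers of mature neutrophils ranged less. Their 16 measured genes had a summed intensity of 161 to 217, a 1.34-fold range, and r = 0.14 with S100a8 and S100a9 within groups. Their medians lay between log2 2.26 and 4.67, many near background, which limits the range of the sum. Of the 6 above background on all arrays, r was 0.51 for Hdc, 0.49 for Il1b and 0.20 for Fpr2. It was -0.21 for Cxcr2, -0.34 for Asprv1 and -0.47 for Trem1. The granulocyte colony-stimulating factor receptor Csf3r stayed between 3.01 and 3.60 and the chemokine receptor Cxcr2 between 3.21 and 4.58, while Itgam, the integrin chain CD11b, and Clec4e were at or under background on all arrays. By 24 h none of the 16 was called in C57BL/6, 1 rose and 3 fell in B6.Sle1b, and 1 rose in Sle1b.BACSlamf6-H1. Of the 7 secondary granule markers other than Camp, Ngp and Ltf, Lcn2 (lipocalin 2) was above background on 5 arrays and Chil3 on 14, with r = 0.66 and 0.68. Fcnb was above it on 24 (r = -0.06), Pglyrp1 on 17 (0.41), Mmp8 on 6 (0.18), Hp on 2 (0.07) and Cd177 on none. Ly6g, Fpr1, Retnlg and Cebpe were on the list and not analysed here, having no single-symbol probe set. A further list, the stefin A cluster, had 2 of 5 genes measured, Stfa2l1 above background on 0 arrays and Stfa3 on 4. Stfa3 averaged 4.64 in unstimulated B6.Sle1b and 2.07 in unstimulated Sle1b.BACSlamf6-H1. Within groups its r with S100a8 and S100a9 was -0.48. In B6.Sle1b 1 of the 2 genes was called lower at 4 h and at 24 h. The part of neutrophils in the values of S100a8 and S100a9 was not tested.

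Of 18 monocyte and macrophage markers, 7 were above background on all 26 arrays, among them Ms4a6c (median 10.28), Ctss (9.96), Ccr2 (5.79) and Mpeg1 (5.18), while Marco was above it on none and C1qa and C1qb on 1 each. Within groups Mpeg1 had r = 0.54 and Cd14 0.44 with S100a8 and S100a9, and Ms4a6c -0.37. The list's summed intensity, from 1402 to 3765, had r = 0.14, and the part of such cells was not tested. Hba-a1, the alpha globin of red cells, had r = 0.58, and the erythroid list 0.57. B cell markers had 0.08 and NK cell markers -0.20. Markers of mast cells and basophils were, like Lyz2, highest at 24 h. Their summed intensity was 62.5 to 106 in unstimulated cells and at 4 h, 113 to 142 at 24 h in C57BL/6, 143 to 170 in B6.Sle1b and 154 to 354 in Sle1b.BACSlamf6-H1. By 24 h, 1, 3 and 5 of the 5 were called higher in the 3 strains, and none of the 5 was lower in any. Fcer1a, an IgE receptor chain that was not above background in unstimulated cells, rose at least 1.73-fold in B6.Sle1b (adjusted p = 0.00132) and at least 2.64-fold in Sle1b.BACSlamf6-H1 (1.99e-05). Such a bound sets the brighter mean against the lowest signal above background. Platelet markers were highest at 24 h too, with a summed intensity of 138 to 254, against 41.6 to 93.5 in unstimulated cells and at 4 h. Of 4 measured, 1, 2 and 2 were called higher by 24 h in C57BL/6, B6.Sle1b and Sle1b.BACSlamf6-H1. The part of mast cells, basophils or platelets in the rise of Lyz2 was not tested.

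**Figure D5:**
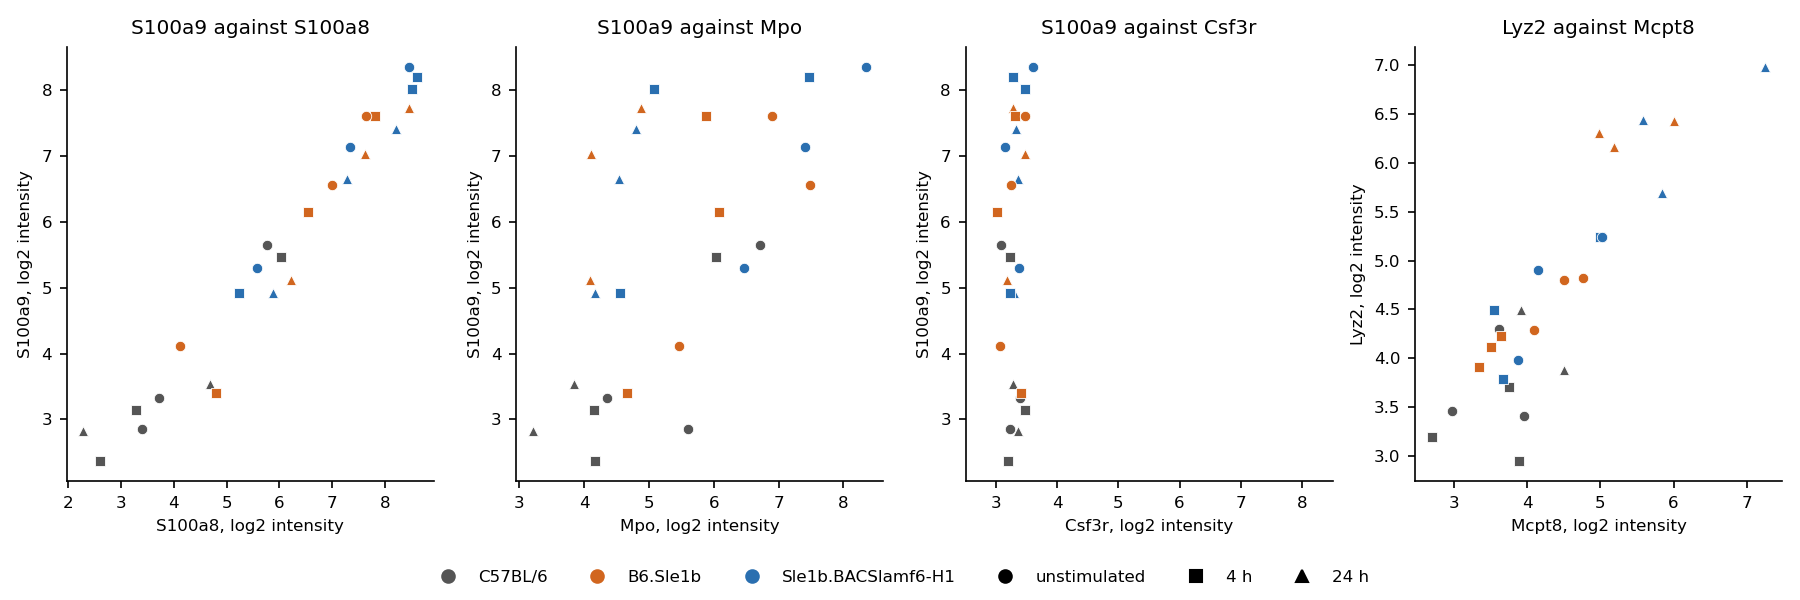
Log2 intensity of S100a9 (vertical axis) against S100a8, Mpo and Csf3r, and of Lyz2 against Mcpt8 (horizontal axes), 1 point per array, coloured by strain with symbols for time. S100a9 rises with S100a8 along 1 line, Csf3r keeps between 3.01 and 3.60 at all levels of S100a9, and Lyz2 and Mcpt8 are both highest at 24 h.

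The genes most like each transcript over the 26 arrays as measured were named by the size of r, with genes of low mean signal left out. Lcn2, above background on 5 arrays, was thus not ranked. It had r = 0.88 with Camp, 0.89 with Ngp and 0.66 with Ltf, above the genes named for them here. For Lyz2 they were Mcpt8, a basophil protease (r = 0.88), Chil3 (0.84) and BC062258 (0.83), and with group means removed Mcpt8 had 0.56 and Chil3 0.65. S100a9 was followed most by Ctsg (0.71), S100a8 by Pisd-ps3 (0.71), Camp by Enc1 (0.63), Ngp by Mpo (0.61) and Ltf by Camk2n2 (0.65). Slpi stood nearest to the immunoglobulin light chain genes Igkv6-15 (0.89) and Igk-V21 (0.87) and to S100a6 (0.89). The part of B cell or plasma cell RNA in the level of Slpi was not tested. Il1r2 stood nearest to Stx11 (0.88), Spock2 (0.87) and Itgb1 (0.85). Against the mean of the 8 with group means removed, Mpo was first of 11355 genes above background (0.78) and Chil3 second (0.74), followed by Chst11, Chaf1b, E2f8, Stil, Zmym3, Dcxr, Ncbp1 and Scd1 (0.74 to 0.68). Only 3 of these 10 remained without array 2 of unstimulated B6.Sle1b, the array with the highest mean of the 8, and Mpo was still first (0.80).

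The relatives and partners of the 8 genes were followed as lists. Of 9 other S100 genes, 4 fell by 24 h in each strain, S100a4, S100a6, S100a10 and S100a11, with S100a4 at -2.55 ± 0.35 in C57BL/6 (adjusted p = 6.55e-06), and 1, S100a1, rose at least 1.24-fold in Sle1b.BACSlamf6-H1 (adjusted p = 0.0490). Of 4 receptors of the calprotectin complex, Tlr4 was at or under background on all arrays and Cd36 on all but 1, and the adhesion protein gene Emb fell at both times in all strains, by 2.29 to 2.34 at 24 h. Among 9 interleukin 1 family genes, Il18r1, the interleukin 18 receptor, fell by 1.98 to 2.17 at 24 h in all 3 strains, as did Il18rap, its accessory chain, while Il1r1, the signalling receptor, was above background on 9 arrays and never called. Of the proteases and inhibitors around Slpi, Serpinb1a, another elastase inhibitor, fell by 24 h in C57BL/6 (-1.12 ± 0.22, adjusted p = 3.52e-04) and in B6.Sle1b (2.00-fold, adjusted p = 3.08e-04), and Wfdc2 was not called.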

How the data were processed

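Total RNA was measured on 28 Affymetrix HT MG-430 PM arrays. The authors deposited 1 intensity per probe set on a linear scale, made by RMA per the submitters' processing notes (no version is named there), so background correction and normalization preceded deposit. Here log2 of the intensity was taken. Of 45141 probe sets, 28898 had 1 platform symbol, 551 several and 15692 none, and 28689 matched the RefSeq annotation of GRCm38.p6. Each gene was read through its brightest probe set, giving 17097 genes. Groups were taken from the labels. Stimulated and unstimulated cells were compared within each strain in 1 limma 3.58.1 fit (R 4.3.3) of 9 group means over 26 arrays, with Benjamini-Hochberg adjustment over 17097 genes and a call under 0.05. Same-numbered arrays of B6.Sle1b had correlated deviations in all 9 pairs (0.17 to 0.70), so the replicate number was taken to pair them, from the data and not from the labels. Those of C57BL/6 (5 of 7 pairs over 0.1) and Sle1b.BACSlamf6-H1 (3 of 9) were not taken as paired. In B6.Sle1b, arrays 1 and 2 also correlated across numbers (0.06 to 0.43), and array 3 ran against both (-0.61 to -0.24). Array 3 was the dimmest of B6.Sle1b at each time (75th percentile 35.6, 39.2 and 35.6). The part of pairing and of array brightness in these correlations was not tested. Blocked values of single genes come from 1 fit over all strains with the number as a fixed block. A fit with the number as a random block was also run, and its counts are given. Strain differences were described without a test. The 8 genes and all gene lists were chosen with earlier results of these data known. Beyond the 8 genes and the lists, the text names the genes whose log2 values correlate most with each of the 8 or with their mean. Genes of low mean signal were left out of that ranking. Other genes named from the lists were chosen after their values were seen. Alternatives changed the normalization, filter, probe set rule, variance model, array weights, replicate block and arrays included. On simulated data for C57BL/6 at 4 h (17097 genes), the fit recovered 82 of 100 genes changed by log2 1 and 99 of 100 changed by log2 2, with 11 false calls. The changed genes were drawn at random, each with its own spread (median SD 0.21 over all genes) and independent noise. These rates do not apply to the 8 genes, whose SD was 0.38 to 1.61.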

Additional observations from a re-analysis of the deposited data

How the results depend on the processing

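The number of the 8 genes called at 24 h in C57BL/6, 2 in the reported fit, was 1 with array quality weights, after centring on the array median and after a repeated quantile normalization, and 0 in a fit of only the groups compared. Leaving out each array in turn gave 0 to 1 there and 3 to 4 in B6.Sle1b at 24 h. With array quality weights 1 was called at 4 h in C57BL/6 and 2 in B6.Sle1b. The causes were not tested. Chosen after seeing the data, leaving out array 1 of C57BL/6 at every time gave 0 at 24 h in C57BL/6, with Slpi at adjusted p = 0.422 and Il1r2 at 0.160, and leaving out the 3 dimmest arrays outside 24 h gave 1. Over all strains 17 of 26 arrays correlated best with their own number. With the number as a fixed replicate block, 1, 3 and 2 genes were called at 4 h and 4, 5 and 3 at 24 h in C57BL/6, B6.Sle1b and Sle1b.BACSlamf6-H1. As a random block it gave 0 in each strain at 4 h and 2, 3 and 3 at 24 h. No called difference turned its sign. Uncalled ones did, such as S100a8 in C57BL/6 at 24 h (-2.01 to 0.40 without single arrays). The median activation difference of B6.Sle1b turned from -0.31 to 0.12 at 24 h and from -0.45 to 0.01 at 4 h with array weights. It was -0.07 at 24 h with brightness as a covariate, and that of C57BL/6 was -0.95 with the fixed replicate block. The medians of both lines with the interval over C57BL/6 stayed above 0 without each array. Over all genes, counts called at 4 h were 1204 in C57BL/6 and 973 in B6.Sle1b, against 2563 and 2215 with array brightness as a covariate, 4742 and 4497 with array weights, 474 and 351 with only the groups compared, and 2400 and 2011 without the 3 dimmest arrays. Without array 1 of C57BL/6 they were 709 at 4 h and 2686 at 24 h, where the reported fit had 4157 and the groups alone 2579. With array weights the 24 h counts were 8849 in B6.Sle1b (reported 4819) and 7759 in Sle1b.BACSlamf6-H1 (reported 4975). Camp was near background on many arrays, which limits what could be seen of it.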

Other observations

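The 2 arrays titled technical, both of C57BL/6 at 24 h, were kept out of the groups. Technical array 3 was closest to array 1 of that group over all genes (r = 0.997), and technical array 4 to array 2 (r = 0.995). S100a8 measured 4.88 on technical array 3 and 3.06 on technical array 4, S100a9 3.39 and 2.48, and Slpi 5.29 and 4.76. The largest difference from the closest array was 0.586 for Slpi on technical array 3 and 0.782 for S100a8 on technical array 4. Lyz2 measured 4.52 and 4.06, Il1r2 4.72 and 4.61, Camp 2.79 and 2.96, Ngp 3.36 and 3.26, and Ltf 3.76 and 3.43.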
